A study of Mus musculus with 9 samples.

Results

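Glycolysis genes, the genes that handle lactate and pyruvate, and genes of the response to low oxygen were examined in the retina of mouse pups at postnatal day 8. The members were a list of 41 gene symbols, of which 37 were measured among the 24202 genes tested on the array, each by its brightest probe set. Gpi1, Eno1, Pfkfb1 and Car9 were not analysed here. The list goes by gene function, and its rule uses no measured value except to pick the brightest probe set. Its members were, however, chosen with earlier results of these data known, so their counts are not independent of these data.

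There were 3 groups with 3 arrays each: Rb/p107 double knockout (DKO), lacking the retinoblastoma protein and its relative p107; Rb knockout (Rb KO); and wild type (WT). All 9 samples were whole retinas of the C57Bl/6x129SvJ background, and the series describes the arrays of a group as biological replicates. The driver of the deletion, the cells that carried it, and the animals' sex or pooling are not stated in the labels. Values are log2 intensities, so a difference of 1 is a doubling, and their precision is limited by the 3 arrays of a group. An array reading was taken as above background when it passed the 95th percentile of that array's negative control probe sets, which lay between 7.94 and 8.50.

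Some facts of the arrays bear on what follows. DKO replicate 2 stood apart: Xist read 5.47 there and 11.44 to 12.15 on every other array, and the mean of 11 lens genes was 9.01 there and 6.96 to 7.61 elsewhere. Replicate 2 was the lowest of the DKO arrays in 26 of 37 members (70.3%), against 39.5% of all genes, so results are also given without it where it changes them. Single arrays are named by group and replicate number, as DKO 2. The targeted gene Rb1 read 9.74, 10.002 and 9.85 in DKO, 9.85, 10.02 and 9.86 in Rb KO and 10.005, 10.19 and 10.46 in WT, and the knockout cannot be judged from these readings of whole retina. The p107 gene Rbl1 was not analysed here. How well positive controls stood apart from negative ones (area under the curve) ran at 0.927 to 0.936 in DKO, 0.928 to 0.935 in Rb KO and 0.932 to 0.954 in WT. The highest values were in WT, so this measure partly goes with genotype. A call lost with it as a covariate therefore cannot be laid to array quality or to genotype.

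Glycolysis turns glucose into pyruvate, and lactate dehydrogenase turns pyruvate into lactate or back, while pyruvate dehydrogenase commits it to the mitochondria. Photoreceptors are known for aerobic glycolysis, the making of lactate from most of the glucose they take up even when oxygen is present. Under normal oxygen, prolyl hydroxylases mark the alpha subunits of hypoxia-inducible factor (HIF) for destruction. When oxygen is low HIF is kept, binds the core words ACGTG and GCGTG in DNA, and raises glucose transporters, glycolytic enzymes and genes such as Adm, Bnip3 and Egln3.

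In short, most glycolytic enzymes that passed the test were lower in each mutant. Of 10 oxygen-response genes 4 were called higher in DKO against WT and 1 lower (12.2% and 17.2% of all genes), with a median log2 fold change of 0.04. Of the 4 higher genes, Adm and Egln3 were above background on only 2 DKO arrays. The lactate exporter gene Slc16a3 was also called higher in DKO. Against WT, 7 of the 37 members were called higher in DKO (12.2% of all genes were) and 15 were called lower (17.2% of all genes), at a Benjamini-Hochberg adjusted p under 0.05 in limma over all genes. In Rb KO against WT 1 member was called higher (10.2% of all genes) and 16 lower (14.3% of all genes). Counting both directions, 29.4% of all genes were called in DKO against WT and 24.4% in Rb KO against WT. Most genes on the array were dim, while most members were not. Among the 7837 genes above background on at least 3 arrays, 55.2% were called in DKO against WT and 51.3% in Rb KO against WT. Of the 30 members among these, 5 were higher and 16 lower in DKO, and 0 and 17 in Rb KO. The median log2 fold change of the members was -0.19 in DKO and -0.23 in Rb KO, against -0.06 and -0.05 over all genes. Both comparisons use the same WT arrays, and in whole tissue fewer cells of a type and less RNA per cell cannot be told apart.

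Members whose arrays did not overlap between groups were also counted, from the same values as the test. All DKO arrays lay above all WT arrays in 8 members (17.4% of all genes) and below them in 17 (26.5% of all genes). All Rb KO arrays lay above all WT arrays in 2 members (14.3% of all genes) and below them in 21 (21.5% of all genes). The upward counts did not stand out from the shares of all genes, and no share was counted for genes above background. Without DKO replicate 2, 6 members were called higher and 10 lower in DKO against WT, and 23.6% of all genes were called in either direction. With this control separation as a covariate, 5 members were higher and 4 lower in DKO, and 1 was higher and 9 lower in Rb KO, while the share of all genes called was 20.5% and 17.9%.

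**Figure D1:**
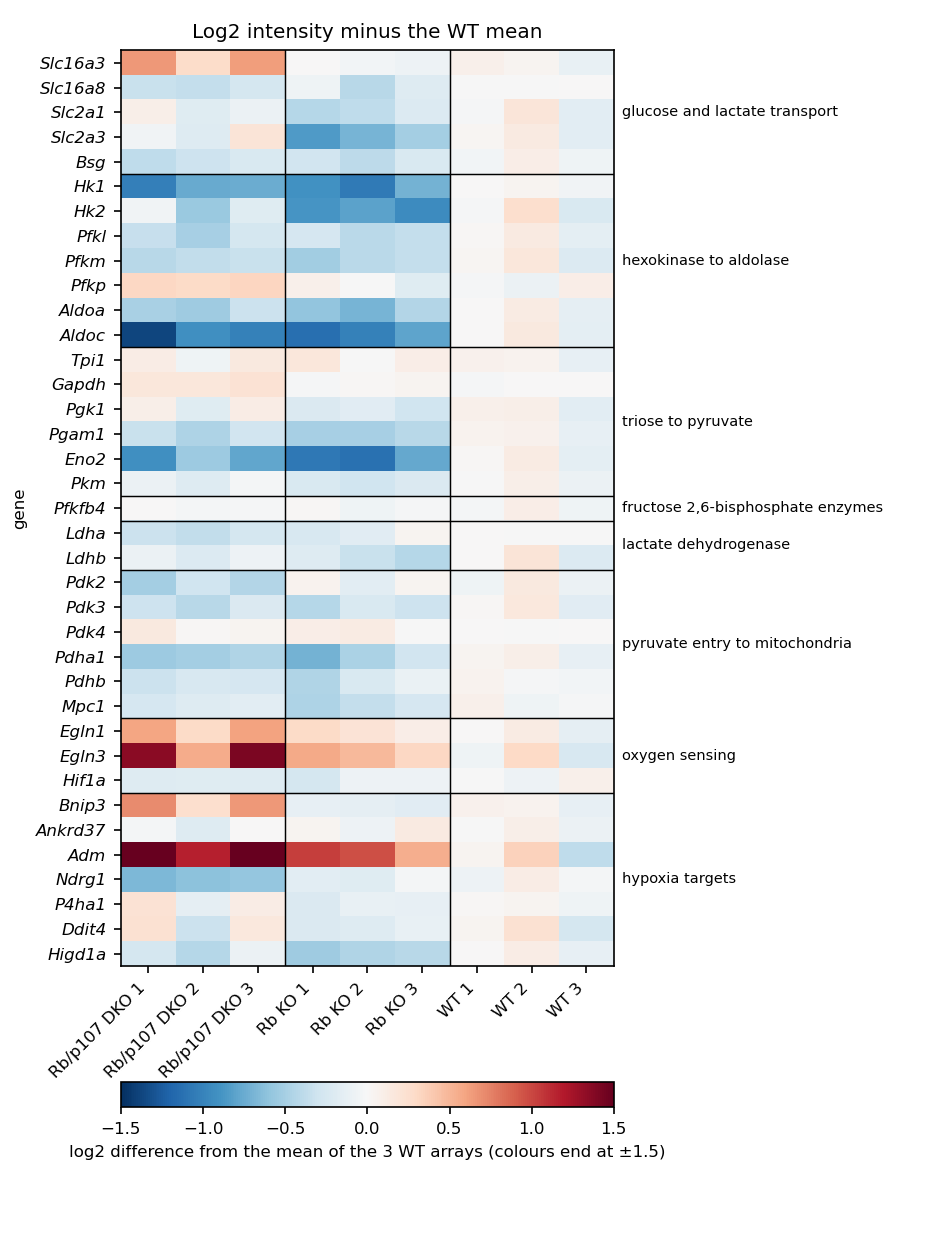
Each of the 37 measured members (rows, grouped by role) on each of the 9 arrays (columns: DKO, Rb KO, WT) as its log2 intensity minus the mean of the 3 WT arrays, with colours ending at 1.5 in either direction. Adm and Egln3 are the darkest red rows in DKO, with replicate 2 paler than replicates 1 and 3, and Aldoc, Hk1 and Eno2 are blue in all 6 mutant arrays.

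The oxygen-sensing and hypoxia target genes moved in both directions. Of 10 measured, 4 were higher and 1 lower in DKO against WT (12.2% and 17.2% of all genes). In Rb KO against WT 1 was higher and 1 lower (10.2% and 14.3% of all genes). The median log2 fold changes of the 10 genes were 0.04 in DKO and -0.13 in Rb KO, against -0.06 and -0.05 over all genes. Promoter windows are shown for the members called higher in DKO against WT by the widest log2 differences in this group, Adm, Egln3 and Bnip3, and for the lactate exporter Slc16a3. Aldoc, the member with the widest fall, is shown beside them. Each runs 5' to 3' on the gene's strand from 250 bases before to 50 after the start of transcription (RefSeq, GRCm38.p6). Capitals mark the words ACGTG and GCGTG on either strand, so that CACGT and CACGC are their reverse complements.
Adm, chr7:110627407-110627706, plus strand: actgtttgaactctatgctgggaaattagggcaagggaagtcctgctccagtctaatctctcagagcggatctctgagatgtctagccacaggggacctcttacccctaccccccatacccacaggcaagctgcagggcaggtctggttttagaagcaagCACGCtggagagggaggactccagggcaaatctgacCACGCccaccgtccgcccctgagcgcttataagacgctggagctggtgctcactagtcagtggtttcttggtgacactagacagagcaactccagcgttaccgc
Egln3, chr12:54203825-54204124, minus strand: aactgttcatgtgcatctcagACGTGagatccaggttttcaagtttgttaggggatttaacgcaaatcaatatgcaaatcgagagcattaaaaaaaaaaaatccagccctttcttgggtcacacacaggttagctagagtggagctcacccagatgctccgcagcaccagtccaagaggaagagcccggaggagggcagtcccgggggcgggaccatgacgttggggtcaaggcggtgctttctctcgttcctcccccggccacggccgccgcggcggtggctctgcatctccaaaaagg
Bnip3, chr7:138909457-138909756, minus strand: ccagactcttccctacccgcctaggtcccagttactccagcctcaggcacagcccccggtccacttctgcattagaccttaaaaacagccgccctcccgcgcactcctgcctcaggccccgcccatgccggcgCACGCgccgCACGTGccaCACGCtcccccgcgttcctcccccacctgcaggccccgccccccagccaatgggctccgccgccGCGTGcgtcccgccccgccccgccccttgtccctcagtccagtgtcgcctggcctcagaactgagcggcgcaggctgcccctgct
Slc16a3, chr11:120948817-120949116, plus strand: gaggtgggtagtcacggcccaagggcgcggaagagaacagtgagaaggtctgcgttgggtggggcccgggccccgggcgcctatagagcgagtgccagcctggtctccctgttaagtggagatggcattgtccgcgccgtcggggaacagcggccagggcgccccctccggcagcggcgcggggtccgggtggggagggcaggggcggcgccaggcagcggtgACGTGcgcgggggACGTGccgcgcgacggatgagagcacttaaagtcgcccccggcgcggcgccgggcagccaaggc
Aldoc, chr11:78322823-78323122, plus strand: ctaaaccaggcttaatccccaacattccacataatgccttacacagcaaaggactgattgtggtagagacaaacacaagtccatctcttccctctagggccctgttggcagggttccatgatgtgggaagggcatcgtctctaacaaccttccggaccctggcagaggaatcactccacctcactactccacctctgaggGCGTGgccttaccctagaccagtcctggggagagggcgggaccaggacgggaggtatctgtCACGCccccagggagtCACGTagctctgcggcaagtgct
The Adm window holds 2 copies of GCGTG, and the Egln3 window holds 1 ACGTG. The Bnip3 window holds CACGTG, which reads ACGTG on both strands, and 3 copies of GCGTG. Aldoc fell, and the window shown for it holds both words. Another window of Aldoc, not shown, holds GCGTG but not ACGTG.

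These words were common in the members' windows whichever way the genes moved. Of the 37 measured members 34 had a window in the table, 45 windows in all, and Slc2a3, Bsg and Ndrg1 had none there. Either word was found in 36 of the 45 windows (80.0%), against 43.8% of all 32851 windows of the same length, and the members' windows were richer in G and C (median 62.3%, against 52.7%). By gene, 7 of 7 members higher in DKO against WT held either word, as did 11 of 13 lower and 13 of 14 not called. The share of all genes with either word was not counted. For single words by gene, ACGTG was in 67.6% of the 34 members and 21.8% of all genes, and GCGTG in 67.6% and 35.2%. CACGTG was in 5 windows (11.1%, against 7.15% of all), TAATCC, a core word of photoreceptor homeodomain factors, in 5 (11.1%, against 7.06%), and TTTGGCGC, TTTCCCGC or TTTCGCGC, words of E2F sites, in 0 of 45, against 1.84% of all windows. Both strands were searched, and such matches are a description of letters, not of binding.

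Adm, which encodes the vasodilator peptide adrenomedullin, had the largest fitted difference of any member. It read 9.51, 8.42 and 9.34 in DKO, 8.28, 8.22 and 7.79 in Rb KO and 7.28, 7.59 and 6.86 in WT. All DKO arrays lay above all Rb KO arrays and these above all WT arrays, though only DKO replicates 1 and 3 were above background. Adm was called higher in DKO against WT (adjusted p = 0.000495, limma), where the group means of 9.09 ± 0.59 in DKO and 7.25 ± 0.37 in WT (SD, n = 3 each, as for all means here) give a rise of at least 1.92-fold over the background percentile. It was also called higher in Rb KO than in WT (adjusted p = 0.0417), but on readings below background, so no fold is given. That call did not hold, with adjusted p = 0.0889 to 0.14, if WT 1, WT 3, Rb KO 1 or Rb KO 2 was omitted, and it was lost with trended and robust moderation (adjusted p = 0.0705).

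Egln3 encodes the prolyl hydroxylase PHD3, which is itself induced by HIF. Its readings were 8.54, 7.74 and 8.59 in DKO, 7.75, 7.67 and 7.49 in Rb KO and 7.12, 7.48 and 6.94 in WT. DKO replicates 1 and 3 stood above background and apart from the other 7 arrays, while DKO replicate 2 lay within the range of Rb KO. The gene was higher in DKO than in WT (adjusted p = 0.00241), by at least 1.10-fold against the background percentile, with means of 8.29 ± 0.48 in DKO and 7.18 ± 0.28 in WT. In Rb KO against WT it was not called (adjusted p = 0.144), although it passed in a fit without DKO replicate 2 (adjusted p = 0.0327), which changes only the shared estimate of the spread, and in a fit of only both groups (adjusted p = 0.0474).

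Egln1, which encodes PHD2, the main oxygen sensor of the family, was above background in every array. It read 10.995, 10.68 and 11.01 in DKO, 10.69, 10.60 and 10.50 in Rb KO and 10.40, 10.53 and 10.27 in WT. The DKO arrays all lay above the WT arrays, and the log2 fold change in DKO was 0.50 (SE 0.106, adjusted p = 0.00493), or 1.41-fold. Rb KO lay between them and was not called against WT (0.20, adjusted p = 0.215). Hif1a, which encodes the oxygen-regulated HIF subunit itself, averaged 11.86 ± 0.01 in DKO, 11.91 ± 0.11 in Rb KO and 12.05 ± 0.07 in WT and passed in neither comparison against WT (adjusted p = 0.0889 in DKO and 0.23 in Rb KO). It was called lower in DKO after renewed quantile normalization (fell by 0.22, adjusted p = 0.0285) and among genes filtered on background (adjusted p = 0.0496). Its level is mainly set on the protein, which these arrays do not measure.

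Bnip3, the gene of a receptor that directs mitochondria to autophagy, was higher in DKO than in both other groups. Its readings were 10.58, 10.11 and 10.51 in DKO, 9.75, 9.73 and 9.69 in Rb KO and 9.94, 9.92 and 9.74 in WT. No DKO array overlapped either other group. The log2 fold change of DKO against WT was 0.53 (SE 0.115, adjusted p = 0.00516), or 1.45-fold, while in Rb KO against WT it was -0.14 (adjusted p = 0.425).

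Ndrg1, a stress-response gene that HIF also raises in many cells, went the other way. It read 11.03, 11.09 and 11.13 in DKO, 11.54, 11.52 and 11.67 in Rb KO and 11.63, 11.81 and 11.67 in WT. The DKO arrays were below all others, with DKO replicate 2 between the other DKO arrays. Ndrg1 fell by 0.62 on the log2 scale in DKO against WT (SE 0.078, adjusted p = 0.000182), a level 1.54-fold lower.

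Among the remaining targets, Higd1a, which encodes a small mitochondrial protein, fell by 0.47 in Rb KO against WT (SE 0.097, adjusted p = 0.00517). Its means were 9.05 ± 0.17 in DKO, 8.84 ± 0.06 in Rb KO and 9.31 ± 0.12 in WT, and in DKO it did not pass (adjusted p = 0.0692). It did pass in DKO after renewed quantile normalization (adjusted p = 0.0378), with the filter on background (adjusted p = 0.036), and without WT 3 or DKO 3 (adjusted p = 0.0343 to 0.0475). P4ha1, a subunit of the collagen prolyl hydroxylase, averaged 9.55 ± 0.18 in DKO, 9.34 ± 0.06 in Rb KO and 9.49 ± 0.06 in WT. Ddit4, which encodes an inhibitor of the growth kinase mTORC1, averaged 9.71 ± 0.30 in DKO, 9.51 ± 0.05 in Rb KO and 9.69 ± 0.25 in WT. Ankrd37 had 1 WT array above background and none in either mutant. None of P4ha1, Ddit4 and Ankrd37 was called in any of the 3 comparisons.

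**Figure D2:**
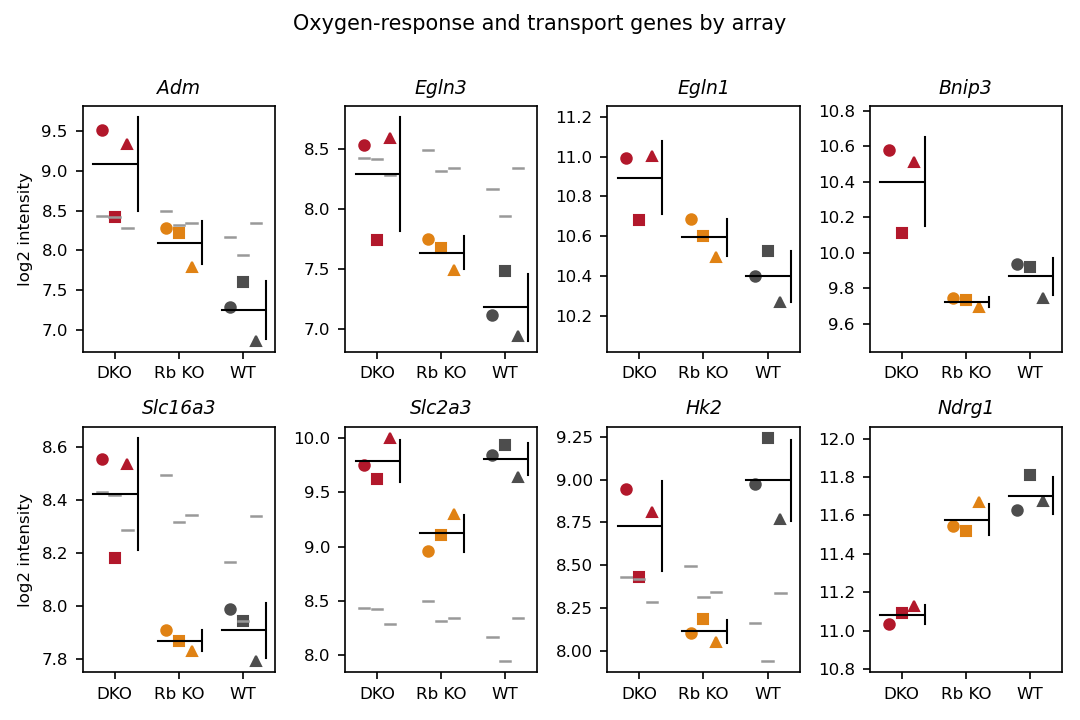
Log2 intensity (vertical axis, its range set for each gene) of 8 oxygen-response, transport and hexokinase genes in DKO, Rb KO and WT, with circles, squares and triangles for replicates 1, 2 and 3, horizontal lines for group means, vertical lines for 1 SD to either side, and grey dashes for each array's background percentile where it falls within the axis. In Adm, Egln3, Egln1, Bnip3, Slc16a3, Slc2a3 and Hk2 the DKO square, replicate 2, lies lowest of the DKO arrays. In Ndrg1 the DKO arrays lie below every other array.

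Genes of glucose and lactate transport moved in both directions. Of 5 measured, 1 was higher and 2 lower in DKO against WT (12.2% and 17.2% of all genes). In Rb KO against WT 3 were lower (14.3% of all genes). Slc16a3, which encodes the lactate exporter MCT4 of highly glycolytic cells, read 8.56, 8.18 and 8.54 in DKO, 7.91, 7.87 and 7.83 in Rb KO and 7.99, 7.94 and 7.79 in WT. All DKO arrays were above all others, and 2 of them, with 1 WT array, were above background. The log2 fold change of DKO against WT was 0.52 (SE 0.104, adjusted p = 0.00368), with no measured fold as most WT readings were below background, and in Rb KO against WT the gene was not called (adjusted p = 0.833).

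Slc2a3 encodes GLUT3, the high-affinity glucose transporter of neurons. Its readings were 9.76, 9.62 and 10.002 in DKO, 8.96, 9.11 and 9.30 in Rb KO and 9.84, 9.94 and 9.64 in WT, so that the Rb KO arrays lay below all others while DKO and WT overlapped. It fell by 0.68 in Rb KO against WT (SE 0.122, adjusted p = 0.00224), a level 1.61-fold lower. In DKO against WT it was not called (adjusted p = 0.942), and the 95% interval of the log2 fold change ran from -0.29 to 0.26. Slc2a1, which encodes GLUT1, the transporter that brings glucose across the outer and inner blood-retina barriers, averaged 11.93 ± 0.13 in DKO, 11.65 ± 0.12 in Rb KO and 11.99 ± 0.17 in WT. It was called lower in Rb KO (fell by 0.34, SE 0.107, adjusted p = 0.0423), which did not hold (adjusted p = 0.0621 to 0.131) if WT 1, WT 2, Rb KO 1, Rb KO 2 or DKO 3 was omitted. With the control separation as a covariate it was -0.18 (adjusted p = 0.289), and with only both groups in the fit the adjusted p was 0.0662.

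Bsg, basigin, escorts the lactate transporters to the cell surface. It averaged 11.62 ± 0.08 in both DKO and Rb KO and 11.93 ± 0.09 in WT, and fell by 0.30 in each mutant (SE 0.080, adjusted p = 0.0147 in DKO and 0.0178 in Rb KO). These calls were lost without DKO replicate 1 (adjusted p = 0.0723) and without Rb KO replicate 2 (adjusted p = 0.0755). The control covariate ended both (adjusted p = 0.152 in DKO and 0.114 in Rb KO). Slc16a8, which encodes MCT3, the lactate transporter of the pigment epithelium, was below background in all 9 arrays. It was called lower in DKO than in WT (adjusted p = 0.022), with no measured fold, and the call did not hold (adjusted p = 0.0501 to 0.0733) if WT 1, WT 3, DKO 1 or DKO 2 was omitted, or with the control covariate (adjusted p = 0.0725). Beside it, 8 of 10 pigment epithelium genes were lower in DKO (17.2% of all genes) and 9 of 10 in Rb KO (14.3% of all genes). Their summed linear intensity ran from 1129 to 1363 in DKO, 1337 to 1512 in Rb KO and 2934 to 3915 in WT, and 0, 1 and 6 of them were above background. Their part in the Slc16a8 result was not tested.

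Of the 13 glycolytic enzyme genes measured, 2 were higher and 7 lower in DKO against WT (12.2% and 17.2% of all genes). In Rb KO against WT 9 were lower (14.3% of all genes) and 0 higher (10.2% of all genes). None was higher there at an unadjusted p under 0.05 in limma. The median log2 fold changes of the 13 genes were -0.36 in DKO and -0.43 in Rb KO, against -0.06 and -0.05 over all genes. All 13 were above background on some array in DKO and in WT, and 12 in Rb KO. Among the 7837 genes above background on at least 3 arrays, 55.2% were called in either direction in DKO against WT and 51.3% in Rb KO. Beside such bright genes, the counts of enzymes called stand out less than beside all genes. At the first step, Hk1, the hexokinase of most neurons, read 9.32, 9.59 and 9.60 in DKO, 9.43, 9.28 and 9.63 in Rb KO and 10.35, 10.39 and 10.29 in WT. Every mutant array lay below every WT array and the mutants overlapped. Hk1 fell by 0.84 in DKO (SE 0.106, adjusted p = 0.000193) and by 0.89 in Rb KO (SE 0.106, adjusted p = 0.000171), levels 1.79-fold lower in DKO and 1.86-fold lower in Rb KO.

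Hk2, the hexokinase that photoreceptors and many tumours use, was called lower in Rb KO. It read 8.94, 8.43 and 8.81 in DKO, 8.10, 8.19 and 8.06 in Rb KO and 8.97, 9.24 and 8.77 in WT. No Rb KO array was above background, and all lay below every DKO and WT array. Hk2 was lower in Rb KO than in WT (adjusted p = 0.00119) by at least 1.53-fold, with means of 8.12 ± 0.07 in Rb KO and 8.995 ± 0.24 in WT, and was not called in DKO against WT (mean 8.73 ± 0.26, adjusted p = 0.193).

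Phosphofructokinase, the committed step, is built from 3 kinds of subunit. Pfkm, the muscle type, averaged 9.99 ± 0.04 in DKO, 9.93 ± 0.08 in Rb KO and 10.36 ± 0.19 in WT, and fell by 0.37 in DKO (adjusted p = 0.0141) and 0.43 in Rb KO (adjusted p = 0.00825). Pfkl, the liver type, averaged 9.22 ± 0.12 in DKO, 9.24 ± 0.08 in Rb KO and 9.58 ± 0.14 in WT, and fell by 0.37 in DKO (adjusted p = 0.0131) and 0.34 in Rb KO (adjusted p = 0.0232). The platelet type, Pfkp, read 10.85, 10.82 and 10.85 in DKO, 10.62, 10.53 and 10.35 in Rb KO and 10.52, 10.45 and 10.63 in WT. Its DKO arrays were above all others, and it rose by 0.31 in DKO against WT (SE 0.085, adjusted p = 0.0194), while in Rb KO it was not called (adjusted p = 0.814).

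All 5 phosphofructokinase calls against WT were lost with the control separation as a covariate. Pfkm then stood at -0.16 in DKO (adjusted p = 0.209) and -0.25 in Rb KO (adjusted p = 0.056), Pfkl at -0.22 in both (adjusted p = 0.18 in DKO and 0.17 in Rb KO), and Pfkp at 0.19 in DKO (adjusted p = 0.208). All but the Pfkm call in Rb KO also rested on single arrays. In DKO the Pfkl call was lost without DKO replicate 2 (adjusted p = 0.0587), the Pfkm call without DKO replicate 1 (adjusted p = 0.0559), and the Pfkp call (adjusted p = 0.0543 to 0.0646) without WT 1, DKO 1 or DKO 3. In Rb KO the Pfkl call did not hold (adjusted p = 0.0544 to 0.0861) if WT 1, WT 2, Rb KO 2 or Rb KO 3 was omitted. Pfkfb4, an enzyme that sets the level of fructose 2,6-bisphosphate, the activator of phosphofructokinase, had 1 of 9 arrays above background and was not called in any comparison.

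Aldoc, the aldolase of brain and retina, showed the widest fall of any member in DKO. It read 10.04, 10.50 and 10.40 in DKO, 10.27, 10.39 and 10.61 in Rb KO and 11.41, 11.56 and 11.26 in WT. All mutant arrays lay below all WT arrays, by 1.10 on the log2 scale of group means in DKO and by 0.98 in Rb KO. These were levels 2.14-fold lower in DKO (SE 0.133, adjusted p = 0.000144) and 1.98-fold lower in Rb KO (SE 0.133, adjusted p = 0.000392). Aldoa, the widespread aldolase, averaged 9.56 ± 0.11 in DKO, 9.43 ± 0.13 in Rb KO and 10.01 ± 0.12 in WT, and fell by 0.44 in DKO (adjusted p = 0.00579) and 0.58 in Rb KO (adjusted p = 0.0016). With the control covariate its DKO value was -0.28 and no longer called (adjusted p = 0.098).

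The lower part of the pathway was uneven. Tpi1, triose phosphate isomerase, averaged 11.14 ± 0.12 in DKO, 11.17 ± 0.09 in Rb KO and 11.08 ± 0.11 in WT and was not called. Gapdh, the dehydrogenase of glyceraldehyde 3-phosphate, read 12.74, 12.74 and 12.79 in DKO, 12.56, 12.60 and 12.62 in Rb KO and 12.56, 12.58 and 12.58 in WT. It rose by 0.18 in DKO against WT (SE 0.063, adjusted p = 0.0492), a difference of 1.14-fold that was lost on leaving out any array except Rb KO replicate 1 (adjusted p = 0.0545 to 0.166). With the arrays quantile-normalized again it was 0.05 (adjusted p = 0.562). It was also not called with the control covariate (adjusted p = 0.11) or in a fit of only both groups (adjusted p = 0.0684).

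Pgam1, phosphoglycerate mutase, averaged 11.56 ± 0.09 in DKO, 11.45 ± 0.05 in Rb KO and 11.92 ± 0.10 in WT, and fell by 0.36 in DKO (adjusted p = 0.00586) and 0.47 in Rb KO (adjusted p = 0.00162). The DKO value was -0.24 with the control covariate and no longer called (adjusted p = 0.0891). Eno2, the enolase of neurons, read 9.16, 9.54 and 9.30 in DKO, 9.01, 8.96 and 9.32 in Rb KO and 10.10, 10.21 and 9.94 in WT. Its mutant arrays all lay below its WT arrays, and it fell by 0.75 in DKO (SE 0.123, adjusted p = 0.00107) and 0.98 in Rb KO (SE 0.123, adjusted p = 0.000246). Those are levels 1.68-fold lower in DKO and 1.98-fold lower in Rb KO.

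Pkm, the pyruvate kinase gene whose splice forms the probe set does not separate, averaged 11.43 ± 0.08 in DKO, 11.29 ± 0.04 in Rb KO and 11.54 ± 0.09 in WT. It fell by 0.25 in Rb KO (SE 0.076, adjusted p = 0.035), which did not hold (adjusted p = 0.0515 to 0.115) on omitting WT 1, WT 2, DKO 1, DKO 3 or any of Rb KO. It was -0.17 with the control covariate (adjusted p = 0.203) and -0.15 after renewed quantile normalization (adjusted p = 0.177). A fit of only both groups also ended the call (adjusted p = 0.0815). For Pgk1, phosphoglycerate kinase, the brightest probe set carries an identifier of chromosome 12, where the reference lists the pseudogene Pgk1-rs7, while Pgk1 lies on X, so its value is uncertain. That probe set and the one on X both failed to pass in all 3 comparisons, and the X probe set gave log2 fold changes of 0.03 in DKO (adjusted p = 0.82) and -0.22 in Rb KO (adjusted p = 0.0981) against WT. The other 36 measured members had a probe set on the gene's own chromosome.

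**Figure D3:**
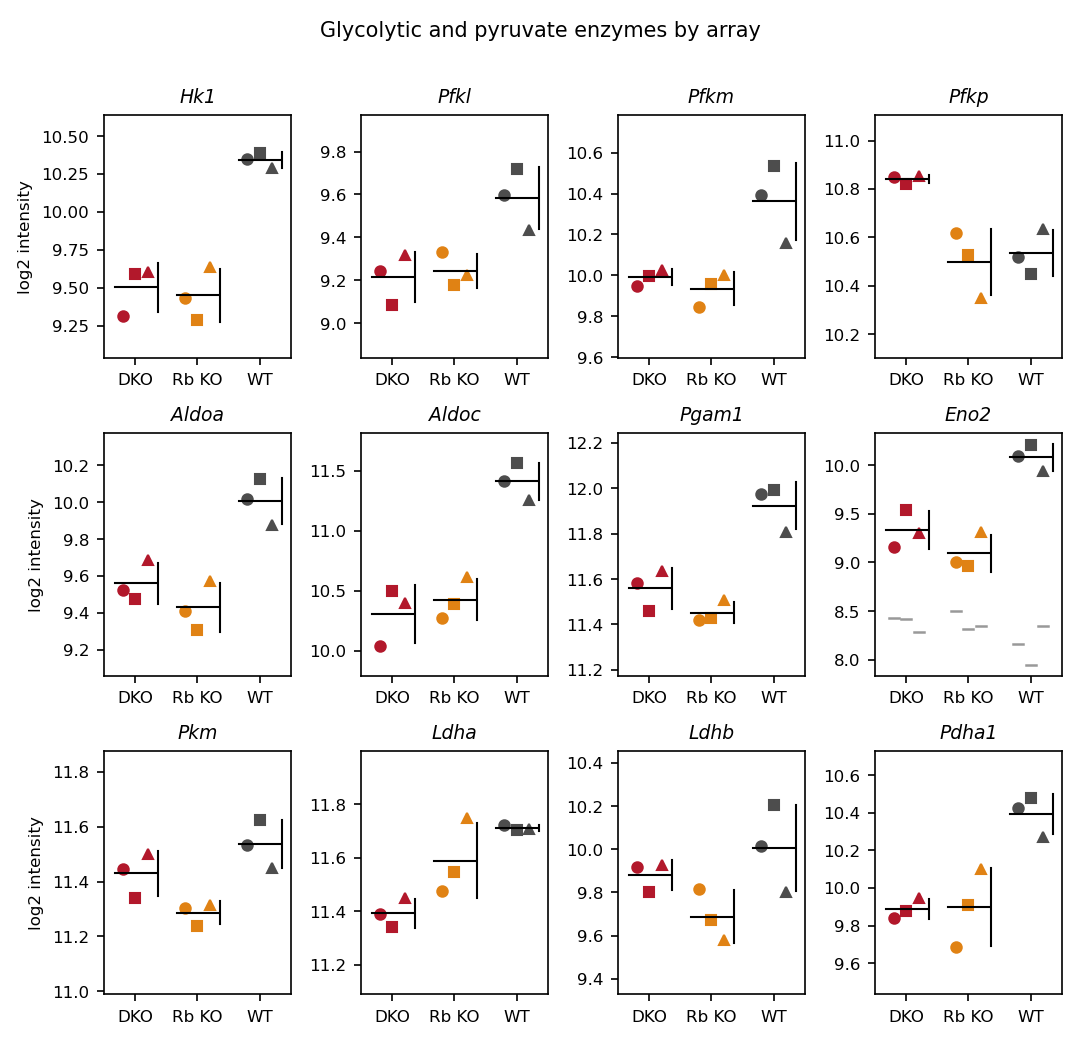
Log2 intensity (vertical axis, its range set for each gene) of 12 glycolytic and pyruvate enzyme genes in DKO, Rb KO and WT, drawn with the same symbols, mean lines and SD lines as the plot of oxygen-response genes. Hk1, Aldoc and Eno2 have all 6 mutant arrays below all 3 WT arrays, Pfkp is higher in DKO, and the Ldhb groups of DKO and WT overlap.

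Against WT, genes of lactate dehydrogenase and of pyruvate entry to the mitochondria were called lower or were not called. Ldha, the lactate dehydrogenase subunit that favours making lactate, read 11.39, 11.34 and 11.45 in DKO, 11.47, 11.55 and 11.75 in Rb KO and 11.72, 11.70 and 11.71 in WT. DKO lay below every other array, while Rb KO spread across the WT values. Ldha fell by 0.32 in DKO against WT (SE 0.081, adjusted p = 0.0132), a level 1.25-fold lower, and the call was lost without DKO replicate 2 (adjusted p = 0.0538) and with the control covariate (adjusted p = 0.111). In Rb KO against WT it was not called (adjusted p = 0.33). Ldhb, the subunit that favours using lactate, averaged 9.88 ± 0.07 in DKO, 9.69 ± 0.12 in Rb KO and 10.01 ± 0.20 in WT and was not called in either (adjusted p = 0.43 in DKO and 0.0512 in Rb KO). In Rb KO it passed with trended and robust moderation (adjusted p = 0.0412), with the filter on background (adjusted p = 0.0236), and without WT 3 or Rb KO 1 (adjusted p = 0.0137 to 0.048).

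Pyruvate dehydrogenase, the gate to the mitochondria, was represented by both subunits of its first enzyme. Pdha1 read 9.84, 9.88 and 9.95 in DKO, 9.68, 9.91 and 10.10 in Rb KO and 10.43, 10.48 and 10.27 in WT, with all mutant arrays below all WT arrays. It fell by 0.50 in DKO (SE 0.104, adjusted p = 0.00425) and 0.49 in Rb KO (SE 0.104, adjusted p = 0.00583), or 1.42-fold in DKO and 1.41-fold in Rb KO. Both calls were lost with the control covariate, at -0.33 in DKO (adjusted p = 0.0778) and -0.35 in Rb KO (adjusted p = 0.0561). Pdhb averaged 11.30 ± 0.05 in DKO, 11.32 ± 0.18 in Rb KO and 11.58 ± 0.05 in WT and fell by 0.27 in DKO (adjusted p = 0.0456). That call was lost on leaving out any WT or DKO array or Rb KO replicate 2 (adjusted p = 0.0599 to 0.146), with the control covariate (adjusted p = 0.27) and after renewed quantile normalization (adjusted p = 0.0993). In Rb KO Pdhb was not called (adjusted p = 0.063), but passed with trended and robust moderation (adjusted p = 0.0426), with the filter on background (adjusted p = 0.0305) and without Rb KO replicate 3 (adjusted p = 0.0238).

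Pdk2 and Pdk3 encode kinases that switch pyruvate dehydrogenase off. Pdk2 read 8.92, 9.14 and 9.002 in DKO, 9.48, 9.28 and 9.48 in Rb KO and 9.38, 9.59 and 9.35 in WT, with the DKO arrays below all others. It fell by 0.41 in DKO against WT (SE 0.096, adjusted p = 0.0079), or 1.33-fold, and was not called in Rb KO (adjusted p = 0.901). With the control covariate the DKO value was -0.35 and not called (adjusted p = 0.0866). Pdk3 minus Pdk2 overlapped between groups in all 3 comparisons. Pdk3 fell by 0.32 in both mutants (adjusted p = 0.0333 in DKO and 0.036 in Rb KO), with 2 of 3 arrays of each mutant above background. The DKO call of Pdk3 did not hold (adjusted p = 0.0817 to 0.119) if WT 1, WT 2, DKO 1 or DKO 2 was omitted. Its Rb KO call did not hold (adjusted p = 0.0507 to 0.118) on omitting WT 1, WT 2, DKO 1 or any of Rb KO. The control covariate ended both (adjusted p = 0.446 in DKO and 0.259 in Rb KO), as did a fit of only both groups (adjusted p = 0.0543 in DKO and 0.0691 in Rb KO).

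Pdk4 was below background in all 9 arrays and was not called. Mpc1, a subunit of the carrier that brings pyruvate into mitochondria, was also below background throughout. It was called lower in Rb KO than in WT (adjusted p = 0.00676), with means of 7.47 ± 0.10 in Rb KO and 7.83 ± 0.07 in WT and no measured fold, and in DKO its mean was 7.63 ± 0.05 (adjusted p = 0.0752 against WT).

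**Figure D4:**
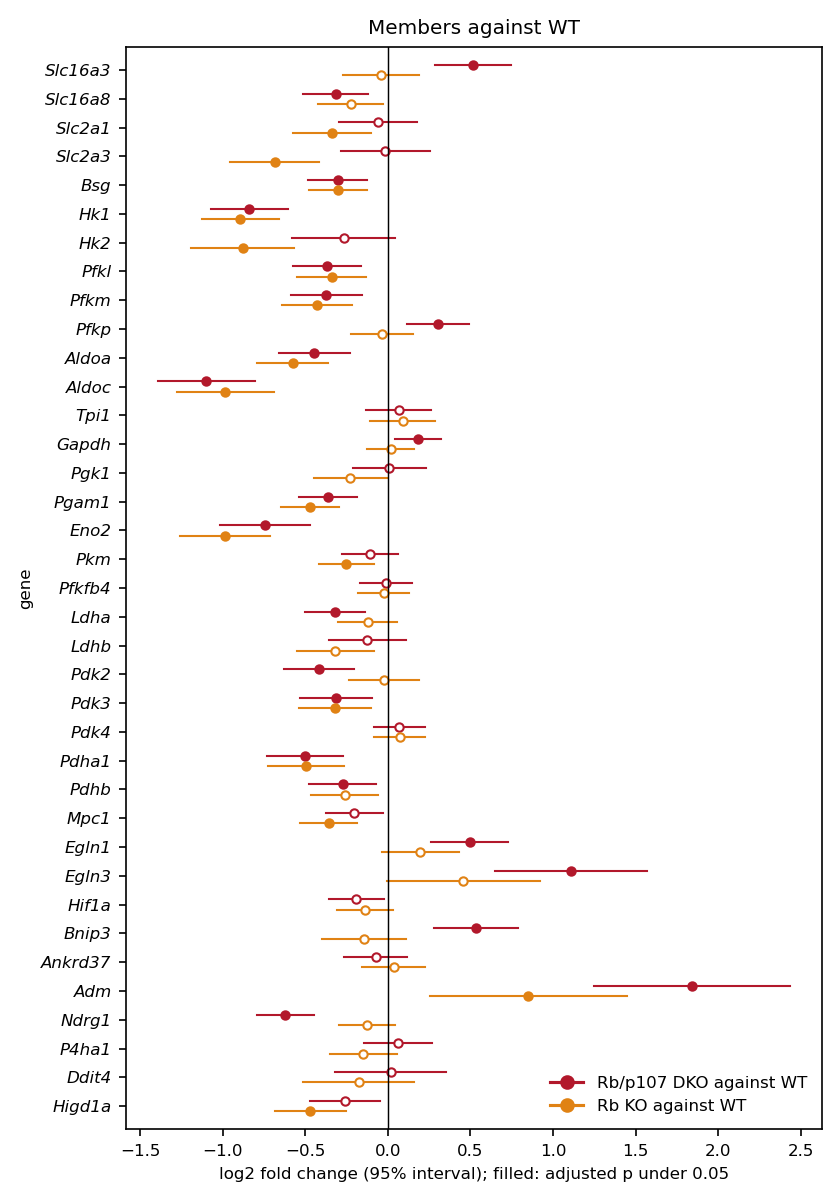
Log2 fold change against WT with its 95% interval (horizontal axis) for the 37 measured members (rows), in DKO above Rb KO for each gene, filled where the adjusted p was under 0.05. Adm has the widest rise and Aldoc the widest fall in DKO. For genes with a group below background, such as Adm, Egln3, Slc16a8 and Mpc1, the fitted value is no measured size.

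Related isoforms were also set against each other within each array, as the difference of their log2 intensities, in 10 pairs. The exact two-sided permutation test of 3 arrays against 3 cannot go below p = 0.10, so none of the 30 tests could pass, and the smallest adjusted value was 0.20. Counting only pairs with both genes above background on an array of each group, the groups did not overlap in 3 of 7 pairs in DKO against WT, 2 of 6 in Rb KO against WT and 4 of 6 between the mutants. Pfkp minus Pfkl averaged 1.63 ± 0.10 in DKO, 1.25 ± 0.12 in Rb KO and 0.95 ± 0.24 in WT, with DKO apart from both. Aldoa minus Aldoc averaged -0.75 ± 0.25 in DKO, -0.998 ± 0.12 in Rb KO and -1.40 ± 0.03 in WT, and neither mutant overlapped WT. Ldha minus Ldhb averaged 1.51 ± 0.04 in DKO, 1.90 ± 0.26 in Rb KO and 1.705 ± 0.20 in WT, with DKO below Rb KO in every array.

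Between the mutants, 3 members were called higher (1.34% of all genes) and 1 lower (1.21% of all genes) in DKO against Rb KO, where 2.55% of all genes were called in either direction. Among genes above background on at least 3 arrays 8.27% were called, with 5 of 30 members higher and 2 lower. All DKO arrays lay above all Rb KO arrays in 10 members (11.3% of all genes) and below them in 3 (10.9% of all genes). The median log2 fold change of the members was 0.13, against -0.00 over all genes. Bnip3 was higher by 0.68 (SE 0.115, adjusted p = 0.0116, 1.60-fold), Slc2a3 by 0.67 (SE 0.122, adjusted p = 0.0178, 1.59-fold) and Slc16a3 by 0.56 (adjusted p = 0.0209). As no Rb KO array was above background for Slc16a3, its measured difference is at least 1.03-fold. Ndrg1 fell by 0.49 (SE 0.078, adjusted p = 0.00752, 1.41-fold), the member called in all 9 fits that left out 1 array.

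The rises between the mutants each depended on some arrays. The Bnip3 call did not hold (adjusted p = 0.0502 to 0.0637) if Rb KO 1, Rb KO 3, DKO 1 or DKO 3 was omitted. That of Slc2a3 did not hold (adjusted p = 0.0515 to 0.081) without Rb KO 1, Rb KO 2, DKO 1 or DKO 3. That of Slc16a3 did not hold (adjusted p = 0.0537 to 0.106) without DKO 1, DKO 3 or any array of Rb KO. The count of members called higher was 0 without Rb KO replicate 1, DKO replicate 1 or DKO replicate 3, fits in which 1.25%, 1.12% and 1.04% of all genes were called, against 2.55% with all arrays. Without DKO replicate 2 it was 6, with Adm (adjusted p = 0.0108), Egln3 (adjusted p = 0.0126) and Hk2 (adjusted p = 0.0176) added. With all arrays these genes had adjusted p of 0.0932, 0.161 and 0.05, the last just above the threshold. DKO replicate 2 lay below the mean of DKO replicates 1 and 3 by 1.01 for Adm, 0.82 for Egln3 and 0.44 for Hk2. Of the 13 glycolytic enzyme genes 0 were called in the reported limma fit of DKO against Rb KO, while 4 were higher and 0 lower at an unadjusted p under 0.05. Hk2 was called higher in 5 of the 7 alternatives other than leaving out 1 array (adjusted p = 0.0184 to 0.0403). Pfkp was called higher in 2 of these 7, with trended and robust moderation (adjusted p = 0.0426) and with the filter on background (adjusted p = 0.027). Pdk2 was called lower in 3 of these 7 (adjusted p = 0.0251 to 0.0479). Without WT replicate 2, Hk2, Pfkp and Pdk2 were also called (adjusted p = 0.028, 0.0466 and 0.0335). Without WT replicate 3 Hk2 was called (adjusted p = 0.0497).

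Other genes of these pathways were taken from lists by function. Of 41 other hypoxia-response genes measured, 15 were higher and 10 lower in DKO against WT (12.2% and 17.2% of all genes). In Rb KO against WT 6 were higher and 10 lower (10.2% and 14.3% of all genes). Between the mutants 4 were higher in DKO and 0 lower (1.34% and 1.21% of all genes). The 3 comparisons had median log2 fold changes of 0.07, -0.02 and 0.09 in that order. Sap30, a subunit of the Sin3 co-repressor complex, averaged 9.13 ± 0.25 in DKO, 8.64 ± 0.10 in Rb KO and 7.71 ± 0.22 in WT, at least 1.97-fold higher in DKO (adjusted p = 2.96e-05) and 1.41-fold in Rb KO (adjusted p = 0.000631). Arnt2, a partner subunit of HIF alpha proteins, rose by 0.81 in DKO (adjusted p = 8.52e-05) and 0.42 in Rb KO (adjusted p = 0.00651), with 2 of 3 WT arrays above background. Kdm4c, a histone demethylase, fell by 1.06 in DKO (adjusted p = 0.000174) and 0.84 in Rb KO (adjusted p = 0.000972). Vldlr, the very-low-density lipoprotein receptor, fell by 0.88 in DKO (adjusted p = 0.000305) and 1.07 in Rb KO (adjusted p = 0.000115). Epas1, the gene of another HIF alpha subunit, was at least 1.52-fold lower in DKO than in WT (adjusted p = 0.000442). Bhlhe40, a transcriptional repressor that HIF raises, averaged 8.70 ± 0.34 in DKO, 7.80 ± 0.03 in Rb KO and 8.45 ± 0.20 in WT. It was at least 1.24-fold higher in DKO than in Rb KO (adjusted p = 0.0124) and lower in Rb KO than in WT (adjusted p = 0.0108), and was not called in DKO against WT (adjusted p = 0.261).

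Of 32 other genes of glycolysis and pyruvate, 4 were higher and 8 lower in DKO against WT (12.2% and 17.2% of all genes). In Rb KO against WT they numbered 4 and 9 (10.2% and 14.3% of all genes). Between the mutants 1 was higher in DKO (1.34% of all genes). Nxnl1, which encodes the rod-derived cone viability factor of photoreceptors, fell by 1.80 in DKO (SE 0.27, adjusted p = 0.000532) and 1.32 in Rb KO (SE 0.27, adjusted p = 0.00461), the lowest values of that list. Tigar, a phosphatase that lowers fructose 2,6-bisphosphate, averaged 8.06 ± 0.14 in DKO, 8.33 ± 0.21 in Rb KO and 9.20 ± 0.14 in WT, at least 1.77-fold lower in DKO (adjusted p = 5.43e-05). Pgm2, a phosphoglucomutase, rose by 0.81 in DKO (adjusted p = 0.000303) and 0.40 in Rb KO (adjusted p = 0.0222), with 2 of 3 WT arrays above background. Slc2a4, the gene called in DKO against Rb KO, was below background in every array.

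Among 13 genes of the pentose phosphate pathway and glycogen, 1 was higher and 5 lower in DKO against WT (12.2% and 17.2% of all genes). In Rb KO against WT they numbered 1 and 3 (10.2% and 14.3% of all genes). Between the mutants limma called none, with 1 higher and 1 lower at an unadjusted p under 0.05. Gys1, glycogen synthase, averaged 8.68 ± 0.20 in DKO and 7.87 ± 0.18 in WT and was called higher in DKO (adjusted p = 0.000422), with no measured fold as 1 of 3 WT arrays was above background. Pygm, the glycogen phosphorylase of muscle and brain, fell by 1.38 in DKO (adjusted p = 0.000216) and 1.33 in Rb KO (adjusted p = 0.000374), with 2 of 3 arrays of each mutant above background. Of 14 regulators of glycolytic genes, 4 were higher and 3 lower in DKO (12.2% and 17.2% of all genes), 3 and 2 in Rb KO (10.2% and 14.3%). Myc, a growth factor-driven activator of glycolytic genes, averaged 8.56 ± 0.06 in DKO, 8.78 ± 0.13 in Rb KO and 7.57 ± 0.11 in WT, at least 1.33-fold higher in DKO (adjusted p = 1.93e-05) and 1.55-fold in Rb KO (adjusted p = 5.97e-06). Its partner gene Max fell by 0.78 in DKO (adjusted p = 0.000124) and 0.60 in Rb KO (adjusted p = 0.000869). Ppargc1b, a coactivator of mitochondrial genes, was at least 1.37-fold lower in DKO and 1.36-fold lower in Rb KO (adjusted p = 0.00101 and 0.00344).

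Marker genes of retinal cell types moved between the same groups. For comparison, 12.2% of all genes were higher and 17.2% lower in DKO against WT, and 10.2% and 14.3% in Rb KO. All 18 rod genes measured were lower in both mutants, and their summed linear intensity ran from 17867 to 33536 in DKO, 17844 to 32195 in Rb KO and 61789.9 to 65659 in WT, with 14, 14 and 18 of them above background. Bipolar cell genes were lower in 9 of 10 in DKO and 10 of 10 in Rb KO, and cone genes in 9 and 6 of 9, with 1 cone gene higher in Rb KO. All 8 genes of cycling cells were higher in both mutants, with summed intensities of 13641 to 15901 in DKO, 10739 to 14364 in Rb KO and 910 to 1107 in WT, and none was above background in WT. Their part in the results of the glycolytic and oxygen-response genes was not tested.

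Vessel, glial and immune markers also moved, beside the same shares of all genes (12.2% higher and 17.2% lower in DKO, 10.2% and 14.3% in Rb KO). Endothelial genes were lower in 11 of 12 in DKO and 9 of 12 in Rb KO, with summed intensities of 4791 to 5018, 5200.4 to 5681 and 5660.4 to 6518 in DKO, Rb KO and WT, and 1, 1 and 7 above background. Muller glia genes were higher in 1 of 8 and lower in 4 of 8 in each mutant, and microglia genes were higher in 5 of 11 in DKO and 6 of 11 in Rb KO. Of 11 lens genes, 5 were higher and 1 lower in DKO, and 0 were called in Rb KO by limma (0 at an unadjusted p under 0.05). DKO replicate 2 was the highest DKO array in 18 of 18 rod genes and 11 of 11 lens genes and the lowest in 8 of 8 cycling genes, beside its low readings of Adm, Egln3, Bnip3 and Slc16a3. What part these play in the members' readings was not tested.

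**Figure D5:**
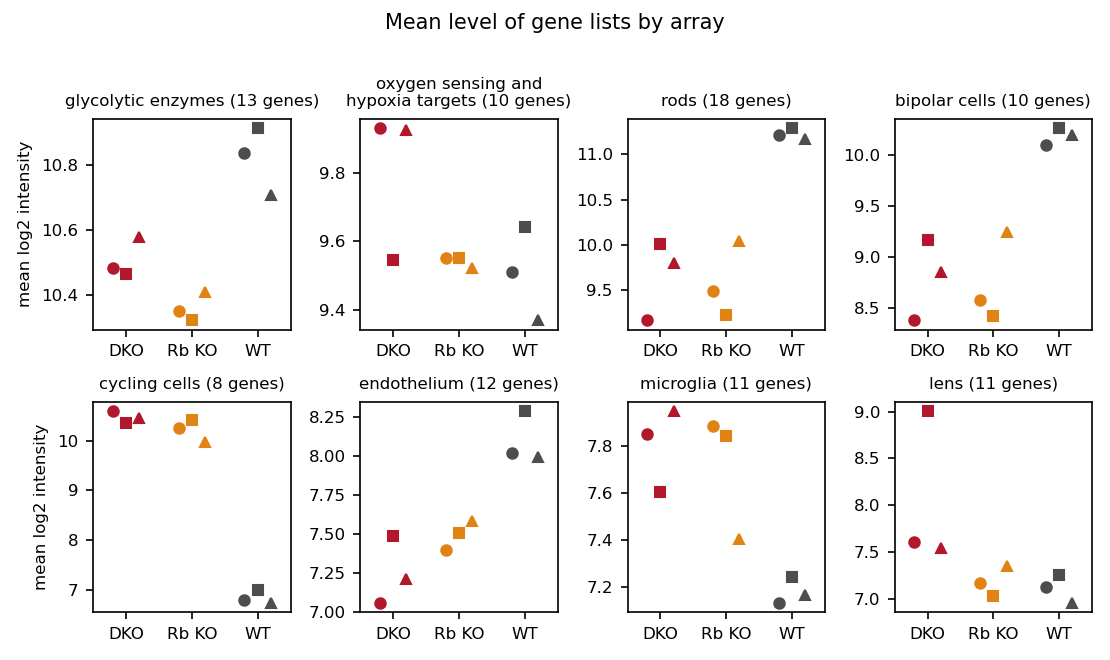
Mean log2 intensity (vertical axis, its range set for each list) of the 13 glycolytic enzymes, the 10 oxygen-sensing and hypoxia target members and 6 lists of cell markers in DKO, Rb KO and WT, with circles, squares and triangles for replicates 1, 2 and 3. The glycolytic mean lies below WT in all 6 mutant arrays, as do the rod and bipolar means, and the DKO square, replicate 2, is low in the oxygen-response panel and high in the lens panel.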

How the data were processed

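Total RNA of whole mouse retina was hybridized to an Affymetrix whole-transcript array, 3 arrays in each of 3 groups. Per the submitters' processing notes the authors used RMA, and the deposited values are log2 intensities per probe set. No software version or genome build is stated there. The table held 59649 probe sets, 52917 of them transcript clusters and 5222 negative controls. Of the clusters 24646 had 1 gene symbol in the platform annotation, and the brightest per gene gave 24202 genes, unfiltered.

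Groups were compared with limma 3.58.1 under R 4.3.3, fitted to all 9 arrays (6 residual and 4.70 prior degrees of freedom), with Benjamini-Hochberg adjustment over all genes. The fit was also run on simulated independent values with few changed genes, a setting unlike these arrays, and no result here rests on it. A bound written "at least" sets the brighter group's mean against the mean, over the dimmer group's arrays, of the higher of the background percentile and the reading, and is no confidence limit. It was used where no array of the dimmer group was above background. Promoter windows came from RefSeq (GRCm38.p6). Isoform pairs were tested with an exact permutation test in scipy 1.17.1.

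Every measured member is named. Of each other pathway list up to 3 higher and 3 lower called genes with the lowest p per comparison could be named. The members and lists were chosen with earlier results of these data known. Alternatives were a renewed quantile normalization, the mean of all probe sets, a filter on dim genes, trended and robust moderation, only the 2 groups compared, the separation of controls as a covariate, the replicate number as a block, and leaving out each array.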

Additional observations from a re-analysis of the deposited data

How the results depend on the processing

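The 111 member differences were refitted under 16 alternatives, giving 1755 values: 1556 kept direction and side of the threshold, 105 lost the call, 33 gained one and 61 changed sign. Using the mean of all probe sets changed no member's call. The 61 belong to 26 differences, none called under any setting, the largest 0.27 as reported and 0.24 with the other sign, and the cause was not tested. Signal over background limits 7 of the 37 members, which passed it on fewer than 3 of the 9 arrays and were not in the filtered fit. Egln3, Adm and Slc16a3 passed it on 2 or 3 arrays.

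With the control separation as a covariate, 4 members were lower in DKO against WT (15 as reported) and 9 in Rb KO against WT (16). Members higher in Rb KO against WT (1 as reported) numbered 0 with the filter, 0 with trended robust moderation, 2 with only the 2 groups, and 0 to 2 on leaving out 1 array. Those higher in DKO against Rb KO (3 as reported) numbered 5 with the filter, 5 with trended robust moderation and 0 to 6 on leaving out 1 array. Those lower (1 as reported) numbered 2 with renewed quantile normalization, 2 with the filter, 2 with trended robust moderation and 1 to 2 on leaving out 1 array.

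The arrays share replicate numbers, but deviations of same-numbered arrays correlated between -0.16 and 0.15, so the numbers were not taken as pairs. With the replicate number as a block, 6 members were higher and 13 lower in DKO against WT, 1 and 13 in Rb KO against WT, and 3 and 1 in DKO against Rb KO. In DKO against WT the block ended the calls of Gapdh (adjusted p = 0.0834), Pdhb (0.0613) and Pdk3 (0.0524). In Rb KO against WT it ended those of Pdk3 (adjusted p = 0.0565), Pkm (0.0637) and Slc2a1 (0.0717).

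Log2 fold changes that changed sign were as follows. In DKO against WT, renewed quantile normalization gave -0.0395 for Pgk1 and 0.0135 for Slc2a3, and the covariate gave 0.00434 for Hk2, 0.0454 for Ldhb, 0.12 for Slc2a1, 0.24 for Slc2a3, 0.0504 for Pfkfb4 and 0.0344 for Ankrd37. In Rb KO against WT, renewed quantile normalization gave 0.0388 for Pfkp and -0.0495 for Gapdh, and the covariate gave 0.0592 for Slc16a3, 0.0331 for Pdk2, 0.0258 for Pfkfb4 and 0.0838 for Ddit4. In DKO against Rb KO, renewed quantile normalization gave -0.000424 for Pdk3 and 0.0046 for Pdk4, and the covariate gave 0.0136 for Bsg and 0.0184 for Pdha1.

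Leaving out 1 array gave these ranges of log2 fold change where the sign changed. In DKO against WT they were -0.12 to 0.0715 for Slc2a3, -0.14 to 0.0285 for Slc2a1, -0.044 to 0.0374 for Pfkfb4, -0.0715 to 0.10 for Pgk1, -0.12 to 0.19 for Ddit4 and -0.0148 to 0.16 for P4ha1. In Rb KO against WT they were -0.0986 to 0.000327 for Slc16a3, -0.0682 to 0.0521 for Pdk2, -0.0586 to 0.0227 for Pfkfb4, -0.0947 to 0.0383 for Pfkp and -0.0143 to 0.0901 for Ankrd37. In DKO against Rb KO they were -0.0802 to 0.0359 for Pfkl, -0.0676 to 0.0426 for Tpi1, -0.0458 to 0.0367 for Bsg, -0.0455 to 0.0548 for Pdk3, -0.042 to 0.0229 for Pdk4, -0.0297 to 0.15 for Hk1, -0.11 to 0.0687 for Pdhb, -0.00812 to 0.0355 for Pfkfb4, -0.12 to 0.0908 for Pdha1 and -0.21 to 0.0205 for Aldoc.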
